A study of Mus musculus with 17 samples.

Results

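The genes described here are 9 liver genes that respond to fasting hormones and to glucocorticoids: Igfbp1, Tat, Sds, Pck1, G6pc, Ppargc1a, Irs2, Fkbp5, and Tsc22d3. They were taken by symbol from the deposited table of log2 ratios, and they had been picked from the log2 ratios of these same arrays, with the differences between the groups known, so their values are given as a description, without p-values, and nothing is read from the counts of calls given below. Of the 9 genes, 7 had at least 1 probe of that symbol among 21452 genes with a symbol, and Pck1 and Irs2 had no probe of that symbol in the table. The 7 genes were measured by 12 probes: Igfbp1, Tat, Sds, and G6pc by 1 probe each, Ppargc1a by 2, and Fkbp5 and Tsc22d3 by 3 each. The Igfbp1 probe had an unflagged spot on 13 of 17 arrays, the probes of Tat and G6pc and the dimmer probe of Ppargc1a on 16 arrays each, and the other 8 probes on all 17. All 12 probes were well above background in the liver channel on 17 of 17 arrays, with 0 saturated spots.

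Livers of 17 male mice were hybridized, 1 array per mouse. The chow group (n = 4) had a chow diet and 1 gavage of maltose, the 1B group (n = 4) a chow diet and 1 gavage of ethanol at 5 g/kg, the HFD group (n = 4) a high-fat diet for 3 months and maltose, and the HFD+1B group (n = 5) the high-fat diet for 3 months and the ethanol gavage. The labels give the strain as C57BL/6N and the methods name C57BL/6J, age was not given in the sources used here, and no group carried a transgene or deletion. Livers were collected 9 hours after the gavage, and whether the mice had food during these hours was not given in the sources used here. Each array carried liver cDNA in the Cy5 channel and a common mouse reference RNA in the Cy3 channel. The labels call this reference assorted mouse RNA in one field and liver in another, so which tissues it holds is uncertain. Every level below is a log2 ratio of liver over this reference, on which a difference of 1 is a 2-fold change.

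Between meals, and especially in fasting, glucagon and glucocorticoids turn the liver toward making glucose from lactate, glycerol, and amino acids, and insulin turns this program off. Glucagon acts through cAMP and the factor CREB, glucocorticoids through their nuclear receptor, and insulin by keeping the FOXO factors out of the nucleus. Enzymes of amino acid breakdown, glucose-6-phosphatase, and the secreted protein IGFBP-1 are long-known outputs of these signals in hepatocytes.

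The sequence just before the start site is shown for the 4 genes in which a searched motif lay and a probe was measured, since these motifs are the letters that CREB, FOXO factors, and the glucocorticoid receptor are known to read. The windows hold the last 250 bases before the start site, 5′ to 3′ on the strand of the gene, from RefSeq on build GRCm38.p6, and capitals mark the match. In Igfbp1 (chr11:7197537-7197786, plus strand) the insulin response sequence core TGTTTTG lay on the opposite strand at -108 to -102, counted from the start site. In G6pc (chr11:101367466-101367715, plus strand) the same letters lay on the gene's strand at -174 to -168. In Ppargc1a (chr5:51567726-51567975, minus strand) the cAMP response element letters TGACG lay on the opposite strand at -49 to -45. In Tsc22d3, which had 3 windows, TGACG lay at -224 to -220 in the window at chrX:140548572-140548821 (minus strand), and the glucocorticoid response element letters TGTTCT lay at -185 to -180 in the window at chrX:140600523-140600772 (minus strand).
Igfbp1: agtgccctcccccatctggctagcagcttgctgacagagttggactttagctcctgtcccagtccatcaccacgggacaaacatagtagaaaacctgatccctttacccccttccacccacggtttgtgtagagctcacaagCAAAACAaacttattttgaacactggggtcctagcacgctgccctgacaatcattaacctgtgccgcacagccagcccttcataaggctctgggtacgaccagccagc
G6pc: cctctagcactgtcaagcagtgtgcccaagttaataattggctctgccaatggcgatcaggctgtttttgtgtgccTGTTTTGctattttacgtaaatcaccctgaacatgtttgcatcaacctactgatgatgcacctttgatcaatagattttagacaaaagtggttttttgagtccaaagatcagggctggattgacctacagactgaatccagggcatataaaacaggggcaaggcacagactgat
Ppargc1a: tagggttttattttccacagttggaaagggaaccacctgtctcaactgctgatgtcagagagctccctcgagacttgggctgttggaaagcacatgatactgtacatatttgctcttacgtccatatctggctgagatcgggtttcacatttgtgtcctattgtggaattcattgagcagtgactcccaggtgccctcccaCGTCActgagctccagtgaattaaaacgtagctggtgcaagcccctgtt
Tsc22d3 (window with TGACG): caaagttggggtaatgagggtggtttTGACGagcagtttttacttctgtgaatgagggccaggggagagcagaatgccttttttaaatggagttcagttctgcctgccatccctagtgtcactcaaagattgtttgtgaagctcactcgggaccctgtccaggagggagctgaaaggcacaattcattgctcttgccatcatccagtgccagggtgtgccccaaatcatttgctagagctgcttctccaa
Tsc22d3 (window with TGTTCT): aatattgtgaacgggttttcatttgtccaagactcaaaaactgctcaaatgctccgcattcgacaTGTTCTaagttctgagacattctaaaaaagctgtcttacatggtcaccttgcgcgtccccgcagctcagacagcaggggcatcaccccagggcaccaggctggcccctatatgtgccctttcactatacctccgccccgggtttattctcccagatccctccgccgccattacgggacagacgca

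Each of these motifs is short and common. On both strands, TGTTTTG was present in 5.56% of all 32851 windows of the same length, TGACG in 17.8%, TGTTCT in 16.1%, and the forkhead letters TGTTTAC, which no window of these genes held, in 3.17%. The palindromic glucocorticoid response element was present in 0.387% of all windows and in none of the 10 windows of the 8 genes that had one. The windows of Tat and Fkbp5 held no searched match, which says only that these letters were not within these 250 bases. Sds had no entry.

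The signal of the liver channel and the levels of cell type markers differed somewhat between the groups. The median Cy5 signal ran from 43 to 138.5 intensity units per array, and 73.86% to 85.98% of spots were well above background. All 8 hepatocyte markers (among them Alb, Ttr, and Hnf4a) were well above background on all 17 arrays. Their mean level relative to chow was -0.24 ± 0.18 (SD, n = 5) in HFD+1B, between -0.48 and -0.08 per mouse, and -0.04 ± 0.10 (SD, n = 4) in HFD, and 2 of 8 were called lower in HFD+1B compared with chow and with HFD. Stellate cell markers stood at 0.95 ± 0.19 in HFD and 0.93 ± 0.45 in HFD+1B relative to chow, with 4 of 6 and 5 of 6 called higher, and macrophage markers at 0.45 ± 0.11 and 0.37 ± 0.18, with 2 of 7 and 1 of 7 called higher. Of 8 neutrophil markers, Ly6g was not tested. Among the 7 tested neutrophil markers, 2 were called higher and 1 lower in HFD+1B compared with chow. Their mean relative to chow was 0.16 ± 0.16 in HFD+1B. S100a8 was well above background in 0 of 4 chow livers and 12 of 17 in all. The others (S100a9, Mpo, Elane, Ngp, Retnlg, and Csf3r) were so in 4 of 4 and 17 of 17. Adipocyte markers held no called gene in any comparison, and cholangiocyte markers had 2 of 4 called higher and sinusoidal endothelium 3 of 5 called lower and 1 higher in HFD+1B compared with HFD, with the mean of the endothelial markers at 0.40 in HFD and 0.33 in HFD+1B relative to chow. Of all genes, 4.5% and 6.47% were called higher and lower in HFD compared with chow. In HFD+1B these shares were 8.89% and 7.4% compared with chow and 11% and 8.39% compared with HFD. The probes of 3 ribosomal RNA genes, a sign of RNA quality or of how the RNA was primed, stood at -3.25 ± 0.74 in HFD relative to chow, between -4.08 and -2.41 per mouse, and at -0.26 ± 0.74 in HFD+1B. HFD thus stood apart from the other groups in these probes. For the interaction, the ethanol difference on the high-fat diet minus that on chow, 3 of 3 were called higher (median 4.15), against 2.67% of all genes. The part of these probes in the differences from HFD and in the interactions given below was not tested. In whole liver, fewer cells of a type and less RNA per cell cannot be told apart.

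Igfbp1, Tat, and Sds were highest in HFD+1B, Fkbp5 was higher in both ethanol groups, G6pc was highest in 1B, and Tsc22d3 was highest in chow. Igfbp1 had the widest separation, with HFD+1B 28.9-fold above HFD and 27.1-fold above chow. The members therefore did not share 1 pattern over the 4 groups.

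**Figure D1:**
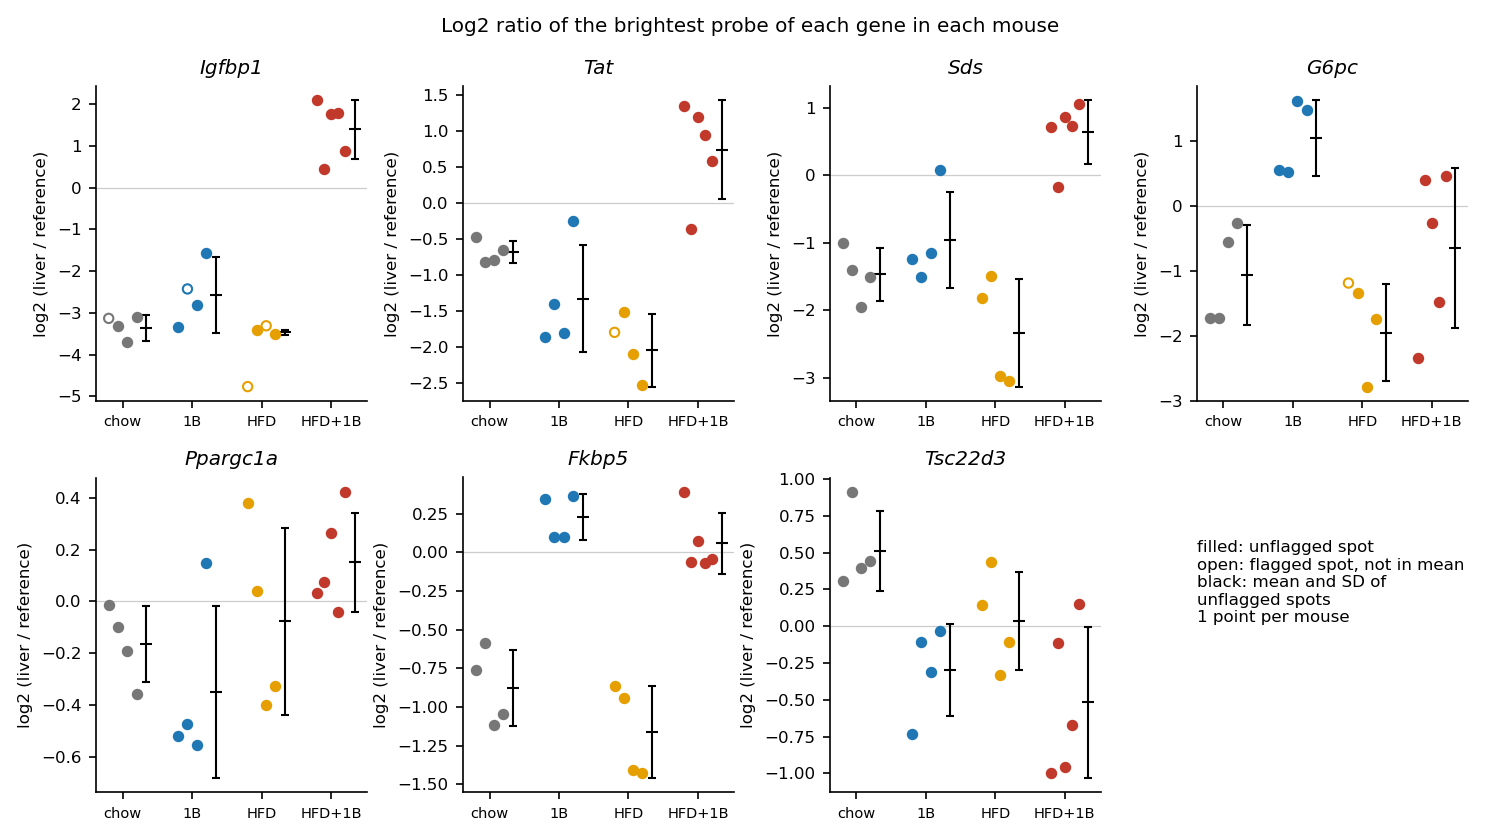
Log2 ratio of liver over reference (y axis) in each mouse of the 4 groups (x axis) for the brightest probe of each of the 7 genes. Filled points are unflagged spots, open points are spots flagged by the scanner software, which are not in the mean, and black bars give the mean ± SD. For Igfbp1 all 5 HFD+1B mice lie between 0.44 and 2.09, above every mouse of the other groups.

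Igfbp1 encodes a secreted binding protein that holds back insulin-like growth factors, and its gene is known to be turned off by insulin. Its log2 ratio was 2.09, 0.44, 1.76, 1.79, and 0.88 in HFD+1B mice 1 to 5. It was -3.42 and -3.51 in HFD mice 2 and 4, -3.31, -3.71, and -3.10 in chow mice 2 to 4, and -3.34, -2.81, and -1.56 in 1B mice 1, 3, and 4. No HFD+1B mouse overlapped with a mouse of another group, and 1B mouse 4 was the nearest. The other 4 spots (chow mouse 1, 1B mouse 2, and HFD mice 1 and 3) were flagged and left out, and the HFD mean rests on 2 mice. With these spots kept, they read -3.13, -2.43, -4.77, and -3.31.

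The mean of Igfbp1 was 1.39 ± 0.70 (SD, n = 5) in HFD+1B, -3.46 ± 0.06 (SD, n = 2) in HFD, -3.37 ± 0.31 (SD, n = 3) in chow, and -2.57 ± 0.91 (SD, n = 3) in 1B. The difference of HFD+1B from HFD was 4.85 on the log2 scale (SE 0.45, 95% interval 3.89 to 5.82). With the flagged spots kept this difference was 5.14 (SE 0.37). The difference of HFD+1B from 1B was 3.96 (SE 0.39, 15.6-fold), and that from chow was 4.76 (SE 0.39). On chow, the ethanol gavage went with a difference of 0.80 (SE 0.44, 95% interval -0.14 to 1.74), and the high-fat diet alone with -0.09 (SE 0.49, 95% interval -1.15 to 0.96). The ethanol difference on the high-fat diet thus exceeded that on chow by 4.05 (SE 0.63). Within the slides that held both groups, HFD+1B exceeded HFD by 4.30 to 5.29 (2 slides), chow by 4.14 to 4.86 (3 slides), and 1B by 3.24 to 5.43 (3 slides).

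Tat and Sds encode enzymes of amino acid breakdown that feed carbon into gluconeogenesis. Tyrosine aminotransferase, from Tat, starts the breakdown of tyrosine and is a classical target of glucocorticoids. Serine dehydratase, from Sds, turns serine into pyruvate. The log2 ratio of Tat was 1.35, -0.36, 1.20, 0.96, and 0.58 in HFD+1B mice 1 to 5 and -1.51, -2.09, and -2.52 in HFD mice 2 to 4. It was -0.47, -0.82, -0.78, and -0.65 in the chow mice and -1.86, -1.40, -1.80, and -0.25 in the 1B mice. All HFD+1B mice were above all HFD and chow mice, and HFD+1B mouse 2 lay just below 1B mouse 4. The HFD mice all lay below the chow mice, and the spot of HFD mouse 1 was flagged and left out (-1.80 with the spot kept).

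The mean of Tat was 0.75 ± 0.69 (SD, n = 5) in HFD+1B, -2.04 ± 0.51 (SD, n = 3) in HFD, -0.68 ± 0.16 (SD, n = 4) in chow, and -1.33 ± 0.75 (SD, n = 4) in 1B. HFD+1B exceeded HFD by 2.79 on the log2 scale (SE 0.37, 6.91-fold). It exceeded 1B by 2.07 (SE 0.34, 4.21-fold) and chow by 1.43 (SE 0.34, 2.69-fold). HFD differed from chow by -1.36 (SE 0.39, 95% interval -2.18 to -0.54) and 1B by -0.65 (SE 0.36, 95% interval -1.41 to 0.11), so the estimate for ethanol was negative on chow and positive on the high-fat diet. The ethanol difference on the high-fat diet exceeded that on chow by 3.44 (SE 0.52). Within 3 slides HFD+1B exceeded HFD by 2.09 to 3.48.

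Sds was measured on all 17 arrays. Its log2 ratio was 0.70, -0.17, 0.86, 0.72, and 1.06 in HFD+1B mice 1 to 5 and -1.82, -1.49, -2.98, and -3.05 in the HFD mice. It was -1.0, -1.41, -1.95, and -1.51 in the chow mice and -1.25, -1.51, -1.15, and 0.08 in the 1B mice. As for Tat, all HFD+1B mice were above all HFD and chow mice, and only HFD+1B mouse 2 lay below 1B mouse 4. The mean was 0.64 ± 0.47 (SD, n = 5) in HFD+1B, -2.33 ± 0.80 (SD, n = 4) in HFD, -1.47 ± 0.39 (SD, n = 4) in chow, and -0.96 ± 0.71 (SD, n = 4) in 1B. HFD+1B exceeded HFD by 2.97 on the log2 scale (SE 0.35, 7.84-fold), chow by 2.10 (SE 0.35, 4.30-fold), and 1B by 1.59 (SE 0.35, 3.02-fold). The difference of 1B from chow was 0.51 (SE 0.37, 95% interval -0.27 to 1.29), that of HFD from chow was -0.87 (SE 0.37, 95% interval -1.65 to -0.08), and the ethanol difference was larger on the high-fat diet by 2.46 (SE 0.51). Within 4 slides HFD+1B exceeded HFD by 2.53 to 3.84.

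G6pc encodes the catalytic subunit of glucose-6-phosphatase, which releases free glucose at the last step of gluconeogenesis. Unlike Igfbp1, Tat, and Sds, it had its highest values in 1B. Its log2 ratio was 0.56, 0.53, 1.62, and 1.48 in the 1B mice and -1.72, -1.73, -0.56, and -0.26 in the chow mice. It was -1.34, -2.78, and -1.74 in HFD mice 2 to 4 and -2.35, 0.39, -0.26, -1.49, and 0.46 in HFD+1B mice 1 to 5. All 1B mice were above all chow, HFD, and HFD+1B mice, and the HFD+1B mice ran from within the HFD range to just below the lowest 1B mouse. The flagged spot of HFD mouse 1 read -1.19 when kept.

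The mean of G6pc was 1.05 ± 0.58 (SD, n = 4) in 1B, -1.07 ± 0.77 (SD, n = 4) in chow, -1.95 ± 0.75 (SD, n = 3) in HFD, and -0.65 ± 1.23 (SD, n = 5) in HFD+1B. The difference of 1B from chow was 2.11 on the log2 scale (SE 0.55, 4.33-fold). On the high-fat diet the ethanol difference was 1.30 (SE 0.57, 95% interval 0.11 to 2.50), and it was smaller than that on chow by 0.81, with an interval on either side of 0 (interaction -0.81, SE 0.79, 95% interval -2.48 to 0.86). HFD+1B was below 1B by 3.24-fold (log2 difference -1.70, SE 0.52). Within 3 slides the difference of 1B from chow was 2.17 to 2.28, whereas that of HFD+1B from 1B was -2.96 to -0.07 over 4 slides. With 1 mouse left out in turn, the 1B difference ran from 1.89 to 2.38 and that of HFD+1B from 1B from -1.97 to -1.27.

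Ppargc1a encodes PGC-1alpha, a coactivator through which CREB and other factors raise gluconeogenic genes. Its largest difference on the brighter probe, 0.50, was below the largest of each of the other 6 genes. The log2 ratio of the brighter probe was 0.03, 0.08, 0.27, -0.04, and 0.42 in HFD+1B mice 1 to 5 and 0.38, 0.04, -0.40, and -0.32 in the HFD mice. It was -0.01, -0.10, -0.19, and -0.36 in the chow mice and -0.52, -0.47, -0.55, and 0.15 in the 1B mice. These groups overlapped in every comparison on this probe, and 1B mouse 4 stood apart from the other 1B mice. The difference of HFD+1B was 0.23 (SE 0.16) from HFD, 0.32 (SE 0.16) from chow, and 0.50 (SE 0.16, 95% interval 0.15 to 0.85) from 1B.

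The dimmer probe of Ppargc1a, with a mean log2 Cy5 signal of 6.22 compared with 8.43 for the brighter one, gave values of the same direction with less spread. It stood at -0.16, 0.04, 0.13, 0.09, and 0.09 in HFD+1B mice 1 to 5 and at -0.24, -0.15, -0.65, and -0.39 in the HFD mice. It stood at -0.33, -0.43, -0.38, and -0.43 in the chow mice and at -0.41, -0.52, and -0.42 in 1B mice 2 to 4. The HFD+1B mice were above all chow and 1B mice on this probe, and HFD+1B mouse 1 lay just below HFD mouse 2. The difference of HFD+1B was 0.40 (SE 0.10) from HFD, 0.43 (SE 0.10) from chow, and 0.49 (SE 0.11) from 1B.

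Fkbp5 and Tsc22d3 are classical targets of the glucocorticoid receptor. Fkbp5 encodes a cochaperone that dampens the receptor, and Tsc22d3 encodes GILZ, an anti-inflammatory leucine zipper protein. On these arrays their estimates for ethanol were opposite in sign on either diet, but the HFD+1B and HFD mice overlapped on every Tsc22d3 probe. The log2 ratio of the brightest Fkbp5 probe was 0.34, 0.10, 0.10, and 0.37 in the 1B mice and 0.39, -0.06, 0.08, -0.07, and -0.04 in HFD+1B mice 1 to 5. It was -0.76, -0.59, -1.12, and -1.04 in the chow mice and -0.87, -0.94, -1.41, and -1.43 in the HFD mice. On this probe all mice given ethanol were above all mice given maltose, and within each pair of groups that shared a gavage the values overlapped. On the second probe the HFD+1B and HFD mice overlapped, and on the third all HFD mice were below all chow mice (log2 difference -0.65, SE 0.19).

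The mean of Fkbp5 was 0.23 ± 0.15 (SD, n = 4) in 1B, 0.06 ± 0.20 (SD, n = 5) in HFD+1B, -0.88 ± 0.25 (SD, n = 4) in chow, and -1.16 ± 0.30 (SD, n = 4) in HFD. The ethanol difference was 1.1 on the log2 scale on chow (SE 0.15, 2.15-fold) and 1.22 on the high-fat diet (SE 0.14, 2.33-fold). These differed by 0.12 (SE 0.21, 95% interval -0.32 to 0.55). The other 2 probes gave 1.11 (SE 0.18) and 0.80 (SE 0.19) on chow and 0.82 (SE 0.17) and 1.57 (SE 0.18) on the high-fat diet, so the order of the diets turned between the probes. Within 3 slides the difference of 1B from chow was 0.69 to 1.21, and within 4 slides that of HFD+1B from HFD was 0.90 to 1.48, on the brightest probe.

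The log2 ratio of the brightest Tsc22d3 probe was 0.30, 0.91, 0.39, and 0.44 in the chow mice and -0.73, -0.11, -0.31, and -0.03 in the 1B mice. It was 0.15, 0.44, -0.33, and -0.11 in the HFD mice and -1.0, -0.12, -0.96, -0.67, and 0.15 in HFD+1B mice 1 to 5. On this probe all chow mice were above all 1B and HFD+1B mice, and the HFD mice overlapped with every other group. On 1 of the other probes the HFD+1B and chow mice overlapped. The mean was 0.51 ± 0.27 (SD, n = 4) in chow, 0.04 ± 0.33 (SD, n = 4) in HFD, -0.30 ± 0.31 (SD, n = 4) in 1B, and -0.52 ± 0.51 (SD, n = 5) in HFD+1B. HFD+1B was 2.04-fold below chow (log2 difference -1.03, SE 0.23), 1B differed from chow by -0.81 (SE 0.24), and HFD+1B differed from HFD by -0.55 (SE 0.23). The other 2 probes gave -0.88 and -0.98 for HFD+1B and -0.67 and -0.71 for 1B, each relative to chow. Within 4 slides the difference of HFD+1B from chow was -1.40 to -0.51.

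**Figure D2:**
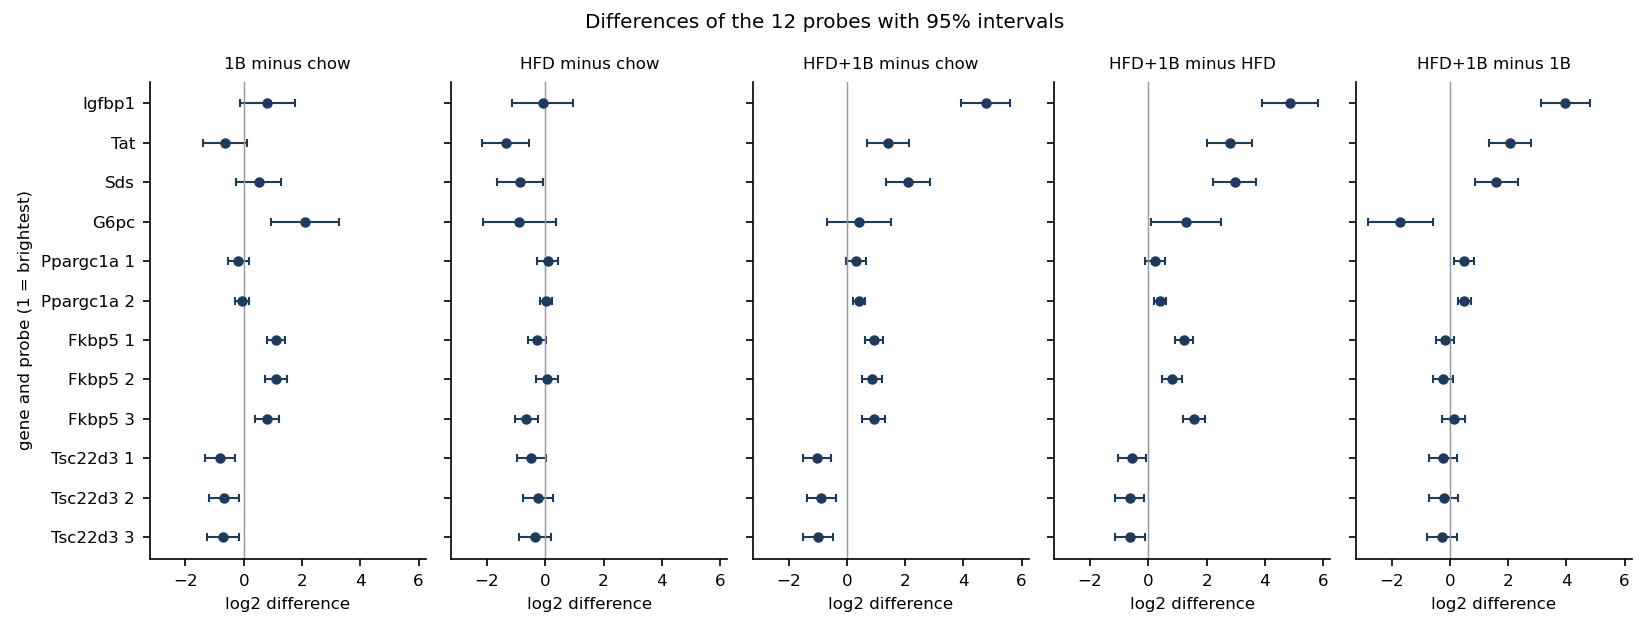
Log2 difference between groups (x axis) for each of the 12 probes (rows), in 5 comparisons, with points for the limma estimate and bars for the 95% interval. Igfbp1, Tat, and Sds lie to the right of 0 in the 3 comparisons of HFD+1B, the Fkbp5 probes do so where ethanol and maltose are compared, and the 3 Tsc22d3 probes lie to the left in 1B and HFD+1B compared with chow.

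Across the 12 probes, the counts at a Benjamini-Hochberg adjusted p of 0.05 or less in limma are given beside the share of all 34664 tested probes, and nothing is read from them, since the genes were chosen with these differences known. In 1B compared with chow, 4 of 12 probes were called higher and 0 lower, where 1.84% and 1.78% of all probes were. In HFD compared with chow, 0 were higher and 2 lower, against 3.88% and 6.1%. In HFD+1B compared with chow, 7 were higher and 3 lower, against 7.79% and 6.98%. In HFD+1B compared with HFD, 7 were higher and 0 lower, against 9.92% and 8.01%. In HFD+1B compared with 1B, 4 were higher and 1 lower, against 5.31% and 4.71%. For the interaction, the ethanol difference on the high-fat diet minus that on chow, 3 were higher and 0 lower, against 2.5% and 1.6%. The 3 probes were those of Igfbp1, Tat, and Sds.

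Counted over mice, groups did not overlap for 4 of 12 probes higher and 3 lower in 1B compared with chow, where 5.65% and 5.45% of all probes did not overlap in these directions. In HFD compared with chow 0 were higher and 2 lower, against 8.37% and 9.95%. In HFD+1B 7 were higher and 2 lower compared with chow, against 7.34% and 7.16%, 5 higher and 0 lower compared with HFD, against 7.58% and 6.82%, and 2 higher and 1 lower compared with 1B, against 4.96% and 5.46%. These counts too come from the differences by which the genes were chosen. Single mice were at the end of their group for many of the genes. The 1B mouse 4 was the highest of its group for 6 of 7 genes and HFD mouse 2 for 5 of 7, and HFD+1B mouse 2 was the lowest of its group for 3 of 7. Median differences over the 7 brightest probes were 0.51 in 1B compared with chow, -0.48 in HFD compared with chow, 0.93 in HFD+1B compared with chow, 1.30 in HFD+1B compared with HFD, and 0.50 in HFD+1B compared with 1B, with medians over all genes within 0.01 of 0 in each.

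The other genes of these pathways were taken as 6 lists without the genes above, 142 tested genes in all, each by its brightest probe. In 1B compared with chow, 17 were called higher and 8 lower, against 2.09% and 2.05% of all 19358 genes. In HFD compared with chow the counts were 17 and 9, against 4.5% and 6.47%. In HFD+1B they were 41 and 20 compared with chow, against 8.89% and 7.4%, 26 and 16 compared with HFD, against 11% and 8.39%, and 23 and 12 compared with 1B, against 6.27% and 5.16%. For the interaction they were 9 and 3, against 2.67% and 1.72%. The lists were chosen with earlier results of these data known. These counts, and those of each list below, are therefore a description and not a test of the pathways.

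**Figure D3:**
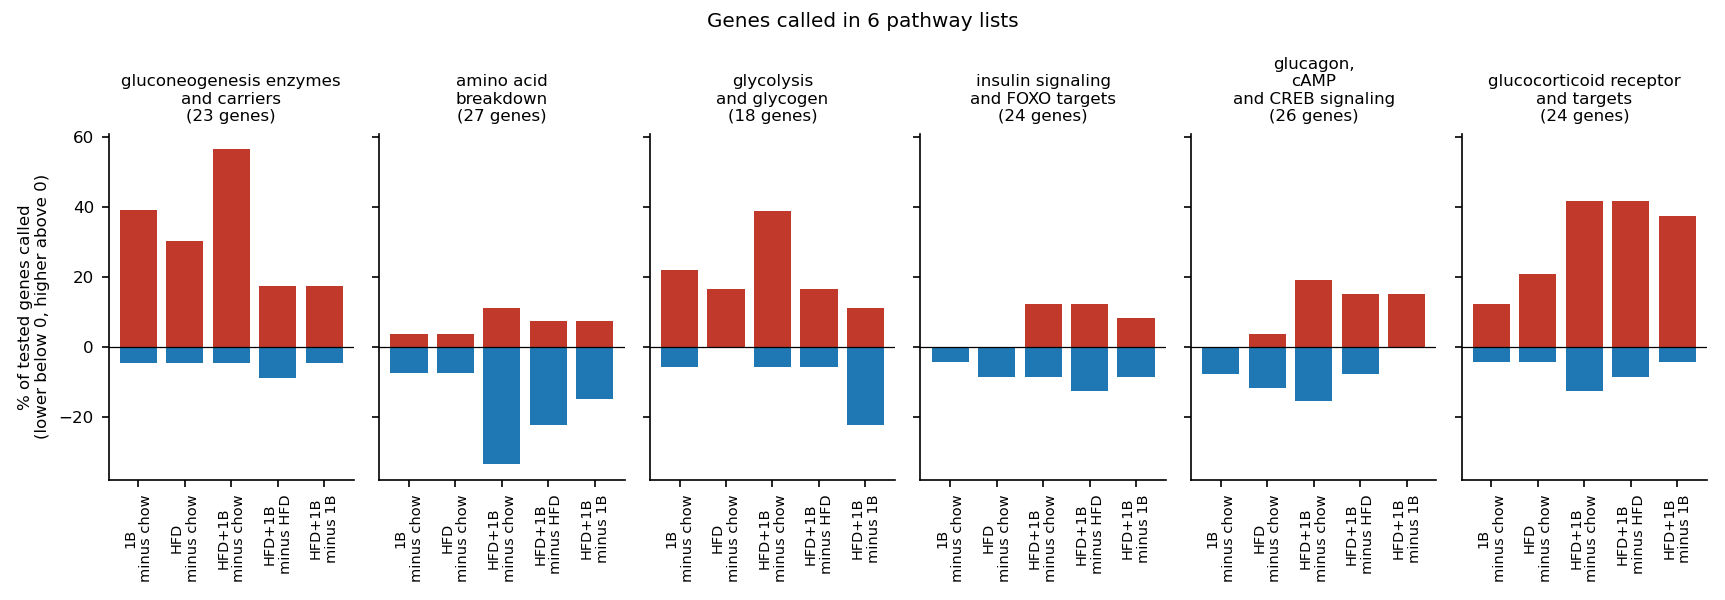
Percent of the tested genes of each of the 6 lists that were called higher (above 0) or lower (below 0) in 5 comparisons, at an adjusted p of 0.05 or less. The list of gluconeogenic enzymes has 13 of 23 genes higher in HFD+1B compared with chow, the glucocorticoid list 10 of 24, and the list of amino acid breakdown 9 of 27 lower.

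Among the 23 enzymes and carriers of gluconeogenesis, 9 were higher and 1 lower in 1B compared with chow, 13 and 1 in HFD+1B compared with chow, and 4 and 2 in HFD+1B compared with HFD, with median log2 differences of 0.28, 0.61, and 0.19. Of all genes, 2.09% and 2.05%, 8.89% and 7.4%, and 11% and 8.39% were called higher and lower in these comparisons. Over the alternatives, the number higher ran from 3 to 10, from 6 to 14, and from 2 to 10. Got1, the cytosolic aspartate aminotransferase, had a pattern like that of Sds, with means of 0.39 ± 0.47 (SD, n = 5) in HFD+1B and -2.48 ± 0.33 (SD, n = 4) in HFD (log2 difference 2.88, SE 0.28, adjusted p = 8.23e-06 in limma). Slc37a4, which carries glucose 6-phosphate to glucose-6-phosphatase, had its highest level in 1B, as G6pc did, at 0.59 ± 0.11 compared with -0.33 ± 0.12 in chow (log2 difference 0.92, SE 0.14, adjusted p = 0.000878) and -0.38 ± 0.31 in HFD+1B (HFD+1B minus 1B -0.96, SE 0.13, adjusted p = 0.00022). Gpi1, glucose-6-phosphate isomerase, which also serves glycolysis, rose with ethanol on either diet, by 2.27 on chow (SE 0.26, adjusted p = 7.35e-05) and by 1.35 on the high-fat diet (SE 0.25, adjusted p = 0.00147).

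Amino acid breakdown as a list did not follow Tat and Sds. Of 27 other genes, 3 were higher and 9 lower (3 to 12 over the alternatives) in HFD+1B compared with chow, with a median of -0.31, and 2 higher and 6 lower compared with HFD, with a median of -0.22. Of all genes, 8.89% and 7.4%, and 11% and 8.39%, were called higher and lower in these comparisons. The count compared with HFD turned with the scaling. With median centring of each array in place of loess, 5 were higher and 0 lower, with a median of 0.05. Hal, which starts histidine breakdown, fell by 1.41 in HFD+1B compared with chow (SE 0.25, adjusted p = 0.000791), and Cth, which makes cysteine from cystathionine, fell by 1.69 (SE 0.24, adjusted p = 0.000189). By contrast, Aass, of lysine breakdown, was at 0.48 ± 0.78 (SD, n = 5) in HFD+1B and -0.95 ± 0.38 (SD, n = 4) in HFD (log2 difference 1.43, SE 0.31, adjusted p = 0.00454). Sdsl, a paralog of Sds, rose by 1.00 in 1B (SE 0.21, adjusted p = 0.00929) and in HFD+1B (SE 0.20, adjusted p = 0.00178), each compared with chow. Sdsl thus rose with ethanol on chow also, where the interval for Sds included 0.

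In glycolysis and glycogen, 4 of 18 genes were higher and 1 lower in 1B compared with chow, with a median of 0.26. In HFD+1B compared with chow, 7 were higher (2 to 9 over the alternatives) and 1 lower, with a median of 0.36. Of all genes, 2.09% and 2.05%, and 8.89% and 7.4%, were called higher and lower in these comparisons. Pklr, the liver pyruvate kinase, rose by 2.34 in 1B compared with chow (SE 0.33, adjusted p = 0.00042). Khk, ketohexokinase, rose by 1.55 in 1B (SE 0.14, adjusted p = 1.05e-05) and by 1.54 in HFD+1B (SE 0.14, adjusted p = 1.29e-06), each compared with chow. Pfkfb1, the liver enzyme that makes and breaks fructose 2,6-bisphosphate, stood at -0.82 ± 0.31 in HFD+1B and between 0.19 and 0.37 on average in the other groups (HFD+1B minus HFD -1.01, SE 0.16, adjusted p = 0.000475).

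Of 24 genes of insulin signaling and FOXO targets, 0 were higher and 1 lower in 1B compared with chow, with a median of -0.11. In HFD+1B, 3 were higher and 2 lower compared with chow, with a median of -0.02. Compared with HFD, 3 were higher (1 to 9 over the alternatives) and 3 lower, with a median of 0.15. Of all genes, 2.09% and 2.05%, 8.89% and 7.4%, and 11% and 8.39% were called higher and lower in these comparisons. Igfbp2, a relative of Igfbp1, went the other way, with means of -1.66 ± 0.60 in HFD+1B, -0.73 ± 0.37 in HFD, 0.13 ± 0.20 in 1B, and 0.98 ± 0.12 in chow, and fell by 2.63 in HFD+1B compared with chow (SE 0.23, adjusted p = 1.29e-06). Pik3r1, a regulatory subunit of phosphoinositide 3-kinase, rose by 1.11 in HFD+1B compared with HFD (SE 0.21, adjusted p = 0.0016). Sesn3, a FOXO target, fell in both ethanol groups, by 0.73 in 1B compared with chow (SE 0.08, adjusted p = 7.26e-05) and by 0.67 in HFD+1B compared with HFD (SE 0.08, adjusted p = 5.45e-05). Igfbp1 and Sesn3, both known FOXO targets, were opposite in sign in HFD+1B compared with HFD, and a part of FOXO factors in either was not tested.

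Of 26 tested genes of glucagon, cAMP, and CREB signaling, 0 were higher and 2 lower in 1B compared with chow, with a median of -0.02. In HFD+1B, 5 were higher and 4 lower compared with chow, with a median of 0.02. Compared with HFD, 4 were higher (2 to 12 over the alternatives) and 2 lower, with a median of 0.20. Of all genes, 2.09% and 2.05%, 8.89% and 7.4%, and 11% and 8.39% were called higher and lower in these comparisons. Cebpb, a transcription factor that acts on gluconeogenic genes and in the acute-phase response, was at 0.55 ± 0.29 in HFD+1B, -0.75 ± 0.39 in HFD, and -1.12 ± 0.48 in 1B, and its ethanol difference was larger on the high-fat diet by 2.11 (SE 0.31, adjusted p = 0.00244). Pde4b, a phosphodiesterase that degrades cAMP, rose by 1.49 in HFD+1B compared with HFD (SE 0.25, adjusted p = 0.000836). Nr4a1, an immediate early nuclear receptor, rose by 0.86 (SE 0.14, adjusted p = 5e-04) in the same comparison. Nr0b2, the corepressor SHP, fell by 1.44 in 1B compared with chow (SE 0.26, adjusted p = 0.003) and by 1.27 in HFD+1B compared with HFD (SE 0.24, adjusted p = 0.00194).

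Genes of the glucocorticoid receptor and its targets were called higher more often than lower in HFD+1B. Of 24 tested genes, 3 were higher and 1 lower in 1B compared with chow, 10 and 3 in HFD+1B compared with chow, 10 and 2 compared with HFD, and 9 and 1 compared with 1B, with medians of 0.04, 0.30, 0.41, and 0.39. Of all genes, 2.09% and 2.05%, 8.89% and 7.4%, 11% and 8.39%, and 6.27% and 5.16% were called higher and lower in these comparisons. Over the alternatives the number higher compared with HFD ran from 6 to 14. The genes with the largest differences are also known to respond to other signals, and which signal lay behind the differences was not tested. Mt2, a metallothionein that metals and inflammation also raise, was at 1.88 ± 0.31 in HFD+1B and -2.66 ± 1.29 in HFD (log2 difference 4.53, SE 0.56, adjusted p = 7.25e-05). Cdkn1a, the cell cycle inhibitor p21 and a p53 target, was at 0.62 ± 0.24 in HFD+1B and -1.85 ± 0.63 in HFD (log2 difference 2.47, SE 0.39, adjusted p = 0.000486). Ddit4, an inhibitor of mTORC1 that stress also raises, was at 0.38 ± 0.37 in HFD+1B, -2.13 ± 0.29 in HFD, -2.01 ± 0.52 in 1B, and -1.92 ± 0.69 in chow, with an interaction of 2.60 (SE 0.41, adjusted p = 0.00377). Zfp36, which destabilizes inflammatory mRNA, rose by 1.23 in HFD+1B compared with HFD (SE 0.25, adjusted p = 0.00304), with an interaction of 2.14 (SE 0.37, adjusted p = 0.00633). None of the adjusted p-values given for single list genes passed 0.05 when 1 mouse was left out. With Cy5 alone the calls of Sdsl, of Pfkfb1, and of Slc37a4 in 1B were lost, and with the Tukey test those of Aass, Sdsl in 1B, Nr0b2 in 1B, and Zfp36 compared with HFD.

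**Figure D4:**
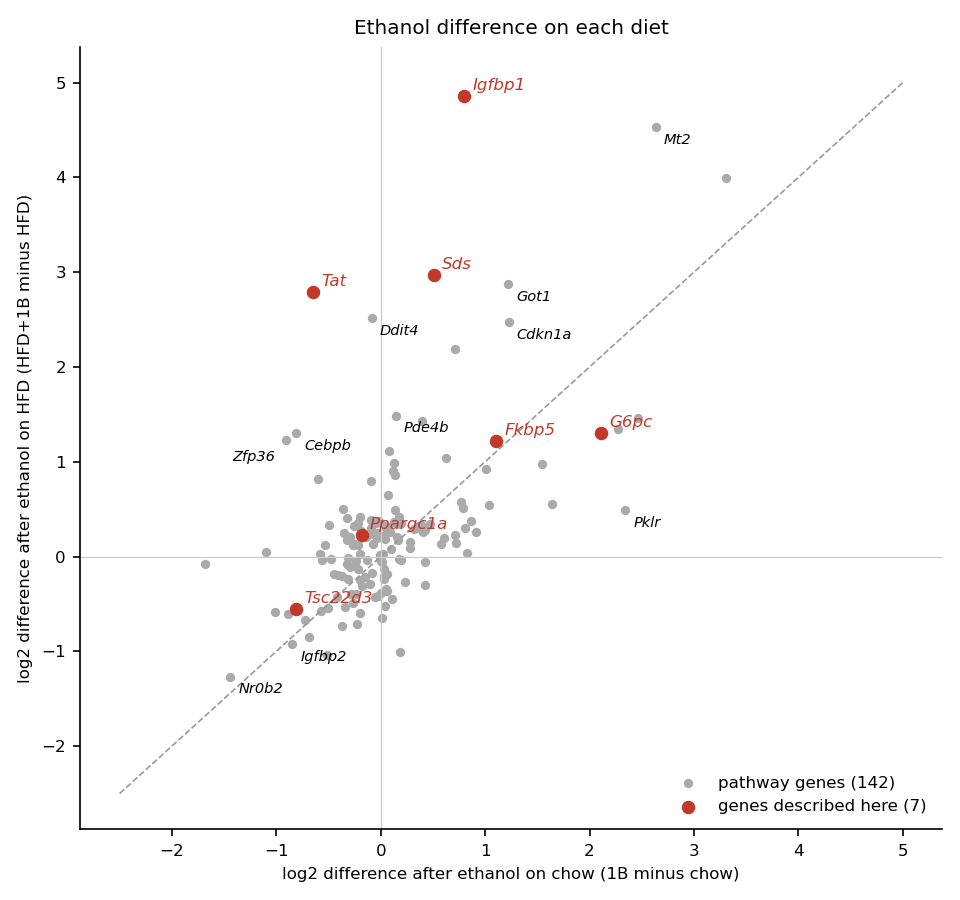
Log2 difference of 1B from chow (x axis) against that of HFD+1B from HFD (y axis) for the 142 genes of the lists and the 7 genes described here, with the dashed line where both are equal. Igfbp1, Tat, and Sds lie 4.05, 3.44, and 2.46 above the line, Fkbp5 lies near it, and G6pc lies below it.

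The genes whose pattern over the arrays was nearest to each of the 7 were found among 17983 genes by the root mean square difference after each gene was centred on its mean. For Igfbp1, over 13 arrays, these were Cd14 (0.94) and Cdkn1a (0.96), against an SD of 2.27 of Igfbp1 itself. Cd14, the coreceptor for lipopolysaccharide, was at 0.59 ± 1.42 in HFD+1B and -2.17 ± 0.33 in HFD. For Tat, over 16 arrays, they were Cyp26a1 (0.49), which degrades retinoic acid, and Zfp36 (0.61), and for Sds, over 17 arrays, Got1 (0.54) and Slc25a22 (0.60), a mitochondrial glutamate carrier. For G6pc, over 16 arrays, Pklr (0.74) and Cabp2 (0.85) were nearest. Fkbp5 was nearest to P2rx3 (0.21) and Cpe (0.26), Tsc22d3 to Gba2 (0.29), and Ppargc1a, which itself had an SD of only 0.30, to Chd2 (0.18) and Asrgl1 (0.19), each over 17 arrays.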

How the data were processed

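Gene expression was measured in 1 liver sample of each of 17 mice on 2-color Agilent 60-mer arrays. The authors extracted spots with Feature Extraction 11.5.1.1, and the deposited scanner files hold raw median signals and backgrounds of both channels and processed signals, all as intensity. A table deposited by the authors holds the log2 ratio of liver over reference for each probe, which was checked to equal the ratio of the processed signals (largest difference 2.74e-06). It was used for the gene symbols and as an alternative. Dyes were not swapped, so dye bias is shared by all groups. Every value column could be assigned to a mouse.

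From the raw signals, background was corrected with normexp (offset 50), which pulls ratios of dim probes toward that of the background. Spots that the scanner software flagged as outliers were left out, loess was run on the ratios of each array, and replicate spots were averaged. A probe was tested if its Cy5 signal exceeded background clearly on 4 or more of 17 arrays and each group had a value (34664 probes, 19358 genes, 3424 missing values, 25 probes left out for lack of a value in some group). A model with 1 mean per group was fitted to the 17 arrays with limma 3.58.1 in R 4.3.3 (lmFit and eBayes, 13 residual degrees of freedom) for 6 comparisons, with Benjamini-Hochberg adjustment over all probes of a comparison. Adjusted p-values in the text are from this fit. Replicates are separate mice, and the number of arrays limits the precision. For a gene with several probes, the probe brightest in Cy5 was used, and the others are given beside it.

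All probes of the members are given. In each pathway list and comparison, up to 3 genes with the largest differences at an adjusted p of 0.05 or less could be named. The text names 2 to 4 per list and, beyond these, Klf15. Up to 2 nearest genes are given for each member. Results of some genes are not reported here. The members and lists were chosen with earlier results of these data known. The lists were written from general knowledge, and 2 entries (Nr4a3 and Zbtb16) were not tested. The linear model was tested on simulated data. Alternatives were other background correction, median centring, the authors' table, Cy5 alone, other filters and flags, slide or replicate number as a block, the Tukey test of the study's methods, a 2-fold call rule, and each mouse left out. Promoter windows came from RefSeq on GRCm38.p6. The array was designed on an older build, and no probe coordinates were used.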

Additional observations from a re-analysis of the deposited data

Results flagged for a closer look

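Groups with values of 4 or 5 mice, 122 in all, were examined for 1 mouse far from the others. The measure was the gap to the nearest mouse over the whole range, set against Dixon's 95% critical value. Of these groups 8 stood out, where chance gives about 1 in 20, or 6.1. Among the members, Ppargc1a in 1B mouse 4 was the highest of its group (0.15 compared with -0.47 in the next mouse, gap ratio 0.888), and Sds in HFD+1B mouse 2 was the lowest (-0.17 compared with 0.70, gap ratio 0.712). The 1B mouse 4 was also far above its group for Cdkn1a (-0.44 compared with -2.62, gap ratio 0.887) and for Sdsl (0.67 compared with -0.05, gap ratio 0.833). HFD mouse 3 stood out for Sdsl (-0.14 compared with -1.04, gap ratio 0.869), chow mouse 4 for Pik3r1 (-0.26 compared with -0.53, gap ratio 0.95), and HFD+1B mouse 5 for Pik3r1 (-0.42 compared with 0.35, gap ratio 0.867) and for Sesn3 (-0.08 compared with -0.30, gap ratio 0.833).

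The ethanol difference on the high-fat diet minus that on chow was called for 11 of 33 probes examined, against 2.5% of all probes higher and 1.6% lower. These probes are of the members and of list genes named for large called differences, the interaction among them, so the count follows from that choice. For Igfbp1, Tat, and Sds it was 4.05, 3.44, and 2.46 on the log2 scale, values that entered the choice of these genes. For Cebpb, Ddit4, and Zfp36 it was 2.11, 2.60, and 2.14, and it was called under all 28 alternatives for each. None of these alternatives adjusted for the ribosomal RNA probes, in which HFD stood apart. For Pfkfb1 it was -1.19 and was lost only with Cy5 alone. For Got1 (1.66) it was lost under 6 of 28 alternatives, 5 of them with 1 mouse left out (chow mouse 1, 1B mice 1 and 2, HFD mice 3 and 4). For Pklr (-1.86) it was lost without any 1 of 7 mice and under 3 other settings. For Pde4b (1.34) and Nr4a1 (0.73) it was lost without any 1 of 14 and 11 mice of 17.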

How the results depend on the processing

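Of 1211 alternative values of the 7 brightest member probes 3 changed sign, all in HFD compared with chow, for Igfbp1 (-0.09, -0.50 to 0.04) and Ppargc1a (0.09, -0.11 to 0.20). Of the same values, 1149 stayed on the same side of the threshold, 47 lost their call and 15 gained one. Of the alternative values of the 21 named pathway genes other than Klf15, 3402 stayed on the same side of the threshold, 172 lost their call and 59 gained one. G6pc ran from 1.79 to 2.38 in 1B compared with chow (2.11) and from -1.97 to -1.27 in HFD+1B compared with 1B (-1.70). The interaction of Igfbp1 (4.05) was lowest with Cy5 alone (2.89). The cause was not tested.

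Member probes called numbered 4 in 1B compared with chow, 2 in HFD compared with chow, 10, 7, and 5 in HFD+1B compared with chow, HFD, and 1B, and 3 for the interaction, and pathway genes 25, 26, 61, 42, 35, and 12. With each mouse left out in turn the ranges were 2 to 5, 0 to 2, 9 to 10, 7 to 10, 4 to 6, and 3 to 4 for member probes and 19 to 28, 12 to 29, 50 to 63, 33 to 45, 24 to 40, and 6 to 17 for pathway genes. The member count of 4 became 2 without chow mouse 1, 2, or 3 or 1B mouse 1, 3, or 4, and that of 2 became 0 without any 1 chow mouse, HFD mouse 3, or HFD mouse 4 and 1 without 1B mouse 3. Pathway genes in HFD compared with chow became 13, 16, and 12 without chow mouse 1, chow mouse 4, and HFD mouse 3, and the interaction 6 without chow mouse 1, chow mouse 4, 1B mouse 1, or HFD mouse 4 and 7 without 1B mouse 2 or HFD mouse 3. With Cy5 alone, member probes were 1, 0, 6, and 3 in 1B and HFD compared with chow and HFD+1B compared with chow and 1B, and pathway genes 11, 13, 36, 25, 16, and 4. With the Tukey test of the methods, member probes were 2, 0, 6, and 2 in the same order, and pathway genes 11, 6, 33, 19, and 17, without an interaction. With the 2-fold rule, member probes were 1 in HFD and 4 in HFD+1B compared with chow, and pathway genes 15, 6, 28, 17, and 16. With the authors' table, member probes were 2 in 1B compared with chow and 3 in HFD+1B compared with 1B, where pathway genes were 23. With median centring the pathway interaction count was 25, and without a filter on dim probes the member count in HFD compared with chow was 0. With slide as a block it was 1, and the pathway interaction count 23.

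Split into higher and lower, all probes numbered 1344 and 2113 in HFD compared with chow, 2702 and 2421 in HFD+1B compared with chow, 3440 and 2778 compared with HFD, 1839 and 1632 compared with 1B, and 868 and 556 for the interaction. With median centring these were 451 and 2698, 2504 and 1310, 5717 and 893, 1833 and 678, and 1652 and 162. With Cy5 alone they were 309 and 1113 in HFD compared with chow, 1493 and 660 in HFD+1B compared with HFD, and 273 and 44 for the interaction. Gluconeogenic genes in HFD compared with chow were 7 higher and 1 lower, and 1 and 4 with median centring. The glucocorticoid list compared with HFD kept its direction (14 and 0 with median centring, 8 and 0 with Cy5 alone), and its median in 1B compared with chow turned to -0.11 and -0.04.

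Groups shared replicate numbers, and deviations of same-numbered mice correlated at a median of 0.179 (24 pairs, -0.126 to 0.479), compared with -0.0483 for mice of different numbers (84 pairs), with 9 of 17 arrays closest to their own number. Same-numbered mice often shared a slide. Mice of different groups on the same slide correlated at a median of 0.195 (21 pairs, -0.232 to 0.479), compared with -0.0429 on different slides (87 pairs). The numbers were not taken to pair the mice. The main model held neither number nor slide, and each was an alternative as a block. With the replicate block, member probes in 1B compared with chow were 7, and the pathway interaction count was 22. Dim signal limits the second Ppargc1a probe most, and 4 flagged spots limit Igfbp1.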
